A study of Mus musculus and Homo sapiens with 30 samples.

Results

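Messenger RNA of 10 genes that move, store and sense iron was followed in 3 breast cell lines exposed to medium conditioned by fat cells. The genes were chosen by name for their role in iron handling, with earlier results of these data known: Fth1, Ftl1, Tfrc, Slc40a1, Slc11a2, Ncoa4, Ireb2, Aco1, Steap3 and Fbxl5, which are 10 of the 56980 gene IDs counted in the mouse lines. The human line was read for 6 of them by gene ID, out of 61552 IDs: FTH1 (ENSG00000167996), FTL (ENSG00000087086), TFRC (ENSG00000072274), SLC40A1 (ENSG00000138449), NCOA4 (ENSG00000266412) and IREB2 (ENSG00000136381). The mouse lines were E0771, a mammary cancer line, and NMuMG, a mammary gland epithelial line, each with 3 libraries per medium. SkBr3, a human breast cancer line, had 4 libraries per medium. The sample labels place all of them, NMuMG included, under breast cancer. Cells were grown for 36 h and then held for 16 h in 1 of 3 media: standard growth medium (control), or a mixture with 50% secretome, the medium conditioned by inguinal adipocytes, from a lean or an obese source. E0771 and SkBr3 grew in DMEM with serum, and NMuMG medium also held added glucose and insulin. Controls received no secretome at all, which leaves lean against obese as the matched pair. How many adipocyte preparations stood behind each secretome was not given in the sources used here.

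Cells take up iron bound to transferrin through the transferrin receptor (Tfrc). In the endosome the ferrireductase Steap3 reduces the iron and Slc11a2 (DMT1) carries it into the cytosol. Iron that is not used is stored in ferritin, a shell of heavy chains (Fth1), which oxidise iron, and light chains (Ftl1), and Ncoa4 delivers ferritin to the lysosome for breakdown. Slc40a1 (ferroportin) is the known cellular exporter of iron. The iron regulatory proteins Aco1 (IRP1) and Ireb2 (IRP2) bind hairpins called iron-responsive elements when iron is scarce, and Fbxl5 marks Ireb2 for degradation when iron is plentiful. A bound hairpin before the coding sequence blocks translation, and bound hairpins after it stabilise the messenger RNA. Free iron also feeds the lipid peroxidation of ferroptosis, the form of cell death named in the title of the series.

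These hairpins are shown because they are the letters that the regulatory proteins among the members are known to bind. A search of GENCODE M21 transcripts (GRCm38) for a C, 5 paired bases, the loop CAGTGN and the 5 bases that pair back, with G:T pairs allowed, on the sense strand, found 7 sites in 4 of the 10 mouse members. Capitals mark the loop.
Fth1 5′ UTR: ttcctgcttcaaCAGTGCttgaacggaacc
Ftl1 5′ UTR: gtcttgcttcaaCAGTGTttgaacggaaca
Slc40a1 5′ UTR: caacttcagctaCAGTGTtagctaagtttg
Tfrc 3′ UTR site 1: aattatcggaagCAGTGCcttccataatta
Tfrc 3′ UTR site 2: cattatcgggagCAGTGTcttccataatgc
Tfrc 3′ UTR site 3: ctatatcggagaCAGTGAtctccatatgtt
Tfrc 3′ UTR site 4: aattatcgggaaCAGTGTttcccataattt
The Fth1 site lay at chr19:9982732-9982761 on the plus strand and was in 4 of its 5 protein-coding transcripts. The Ftl1 site lay at chr7:45459778-45459807 on the minus strand, in 1 of 2 transcripts. The Slc40a1 site lay at chr1:45925464-45925493 on the minus strand, in 1 of 4 transcripts. The Tfrc sites lay on the plus strand of chromosome 16 at chr16:32631219-32631248, chr16:32631598-32631627, chr16:32631663-32631692 and chr16:32631710-32631739, all in 1 of 3 transcripts. Among all protein-coding genes searched, 0.148% held such a site in a 5′ UTR (31 of 20899) and 0.595% in a 3′ UTR (129 of 21685). The other 6 members held none in these transcripts, which says only that this pattern is not in them. A match describes the sequence and was not tested as a working element here, and counts of RNA do not measure translation.

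Library totals ranged from 18479433 to 31094119 counts, and the share of counts from mitochondrial genes in the mouse libraries from 1.12% to 2.06%. Of 6 epithelial markers, all 6 were above 3 counts in NMuMG. In E0771 only 3 were: Krt8 stood at 229 to 259 CPM (counts per sequenced total, a level relative to library size), Cdh1 reached 0.29 CPM and Krt7 reached 0.179 CPM. Krt19 was at 0 in every library of that line. Of 10 adipocyte markers, 3 were above 3 counts in E0771 and summed to 0.75 to 1.65 CPM, with Lep, Pparg and Adrb3 at 0. In NMuMG 4 were, summing to 19.9 to 27.3 CPM, nearly all Pparg, with Lep, Plin1 and Cfd at 0. Of 10 immune and stromal markers, 7 were above 3 counts in E0771, and their sum moved with the medium: 646 to 734 CPM in control, 423 to 616 in obese and 195 to 224 in lean libraries. Almost all of it was Col1a1 (190 to 219 CPM in lean), while Col1a2, Dcn and Lum reached at most 0.403 CPM and Cd3e was at 0. In NMuMG 4 were, and the sum was 8.64 to 9.23 CPM in control, 6.8 to 7.79 in obese and 6.09 to 6.69 in lean. The part of these markers in the E0771 and NMuMG results below was not tested. In bulk RNA, fewer cells of a type and less RNA per cell cannot be told apart.

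The members called were mostly higher under lean than under obese secretome, and they had been chosen with earlier results of these data known. Of 77 other mouse iron genes, read below, 63 were tested in E0771, where 15 were called higher and 17 lower. In NMuMG 66 of the 77 were tested, and 12 were called higher and 13 lower. Both sets of counts were close to the shares over all genes tested, given below. Calls rest on edgeR at an adjusted p below 0.05, with adjustment over all genes tested, and CPM values are scaled by TMM library factors. In E0771, 6 of the 9 members tested were called for lean over obese, 5 higher and 1 lower, where 52.7% of all genes tested were called, 25.8% higher and 26.9% lower. In NMuMG, 7 of 10 were called, 6 higher and 1 lower, against 35.0% of all genes, 17.6% higher and 17.4% lower. In SkBr3, 5 of 6 were called, 4 higher and 1 lower, against 44.1%, 21.1% higher and 23.1% lower. The median log2 fold change of the members was 0.24 in E0771, 0.17 in NMuMG and 0.22 in SkBr3, and that of all genes tested was 0.0035, -0.0023 and 0.0040. Without sign, the median log2 fold change of members and of all genes was closer. It was 0.31 and 0.24 in E0771, 0.22 and 0.16 in NMuMG, and 0.26 and 0.19 in SkBr3. Since lean secretome moved a large share of all genes, a call on a single member is a common event here. The direction and size carry the description.

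Lean over control gave 5 of 9 members called in E0771, all 5 higher, with 56.3% of all genes called, 27.3% higher and 29.0% lower. It gave 7 of 10 in NMuMG, all 7 higher, with 38.2% of all genes called, 19.1% higher and 19.1% lower. In SkBr3 it gave 4 of 6, 3 higher and 1 lower, with 48.8% called, 23.7% higher and 25.1% lower. Obese over control gave 2 of 9 in E0771, Ftl1 and Steap3, both higher, where 2.61% of all genes were called, 1.21% higher and 1.40% lower. In NMuMG edgeR called none of the 10, with 5.01% of all genes called; 5 members had an unadjusted p under 0.05, and DESeq2 also called 0. In SkBr3 edgeR called none of the 6, with 1.16% called; 3 had an unadjusted p under 0.05, and DESeq2 called 2 (FTH1 and SLC40A1). The 3 comparisons within a line share libraries, so their values stand side by side and are not independent of each other.

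Both ferritin chains were higher under lean than under obese secretome in all 3 lines. Fth1, the heavy chain, stood in E0771 at 3444, 3502 and 3665 CPM in control replicates 1 to 3, at 4980, 3918 and 4091 under obese and at 6196, 6195 and 6301 under lean secretome. In NMuMG it stood at 1963, 1986 and 1919 CPM in control, 3539, 2228 and 2525 under obese and 5105, 5014 and 5421 under lean. In SkBr3, FTH1 stood at 457, 470, 479 and 454 CPM in control, 1126, 497, 637 and 1136 under obese and 2843, 2788, 2302 and 2878 under lean. In every line all lean libraries were above all obese libraries, and all obese above all control. Obese replicate 1 was the highest obese library in both mouse lines, and obese replicates 1 and 4 were the high pair in SkBr3.

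Fth1 was 1.44-fold higher under lean than under obese secretome in E0771 (log2 0.53, SE 0.084, adjusted p = 0.00125). It was 1.87-fold higher in NMuMG (log2 0.91, SE 0.17, adjusted p = 0.00612), and FTH1 was 3.18-fold higher in SkBr3 (log2 1.67, SE 0.25, adjusted p = 0.000519). Over control, lean gave 1.76-fold in E0771 (adjusted p = 9.1e-05), 2.65-fold in NMuMG (adjusted p = 0.000741) and 5.81-fold in SkBr3 (adjusted p = 2.86e-05). The lean libraries thus held from 1.76 to 5.81 times the heavy-chain RNA of control. Obese over control did not pass for this gene: log2 0.29 in E0771 (adjusted p = 0.158), 0.50 in NMuMG (0.19) and 0.87 in SkBr3 (0.147). It passed in E0771 in DESeq2 (0.0333) and without the filter on low counts (0.00893), and in SkBr3 in DESeq2 (0.0171). Without obese replicate 1 the adjusted p was 0.00994 in E0771 (log2 0.18) and 0.000394 in NMuMG (log2 0.28). It was 0.00489 in E0771 without obese replicate 2 and 0.0291 in SkBr3 without obese replicate 2. Over all alternatives it ranged from 0.00489 to 0.467 in E0771, 0.000394 to 0.39 in NMuMG and 0.0171 to 0.408 in SkBr3.

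Ftl1, the light chain, stood in E0771 at 1321, 1424 and 1481 CPM in control, 2288, 1832 and 2003 under obese and 2807, 2844 and 2911 under lean. In NMuMG it stood at 2807, 2958 and 2761 CPM in control, 3799, 2939 and 3165 under obese and 4113, 4046 and 4198 under lean. In SkBr3, FTL stood at 77.2, 73.8, 75.6 and 78.3 CPM in control, 125, 82.5, 90.3 and 121 under obese and 373, 393, 235 and 416 under lean. The lean libraries were again all above the obese ones, while in NMuMG obese and control overlapped. The pseudogene Ftl1-ps1 had 68 to 207 counts in E0771 and 377 to 595 in NMuMG, against 33802 to 91141 and 70960 to 119429 for Ftl1, and how reads shared by near-identical copies were counted was not given in the sources used here.

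Lean over obese was 1.40-fold for Ftl1 in E0771 (log2 0.48, SE 0.077, adjusted p = 0.000701) and 3.39-fold for FTL in SkBr3 (log2 1.76, SE 0.19, adjusted p = 7.39e-05). In NMuMG it was 1.25-fold (log2 0.32, SE 0.093, adjusted p = 0.0393). That NMuMG call was lost when any 1 library other than obese replicate 1 was left out, with adjusted p from 0.055 to 0.111, with a replicate block (0.0681), without the filter on low counts (0.0832) and with only the lean and obese libraries fitted (0.0958); over all alternatives the range was 9.36e-14 to 0.111. Lean over control was 2.03-fold in E0771 (adjusted p = 4.83e-06), 1.45-fold in NMuMG (adjusted p = 0.0044) and 4.65-fold in SkBr3 (adjusted p = 1.2e-05). In E0771 the light chain was also 1.45-fold higher under obese secretome than in control (log2 0.53, SE 0.077, adjusted p = 0.0116). Without control replicate 1 that adjusted p was 0.0835, and with only the obese and control libraries fitted 0.0773, in a range from 6.95e-30 to 0.0835 over the alternatives.

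**Figure D1:**
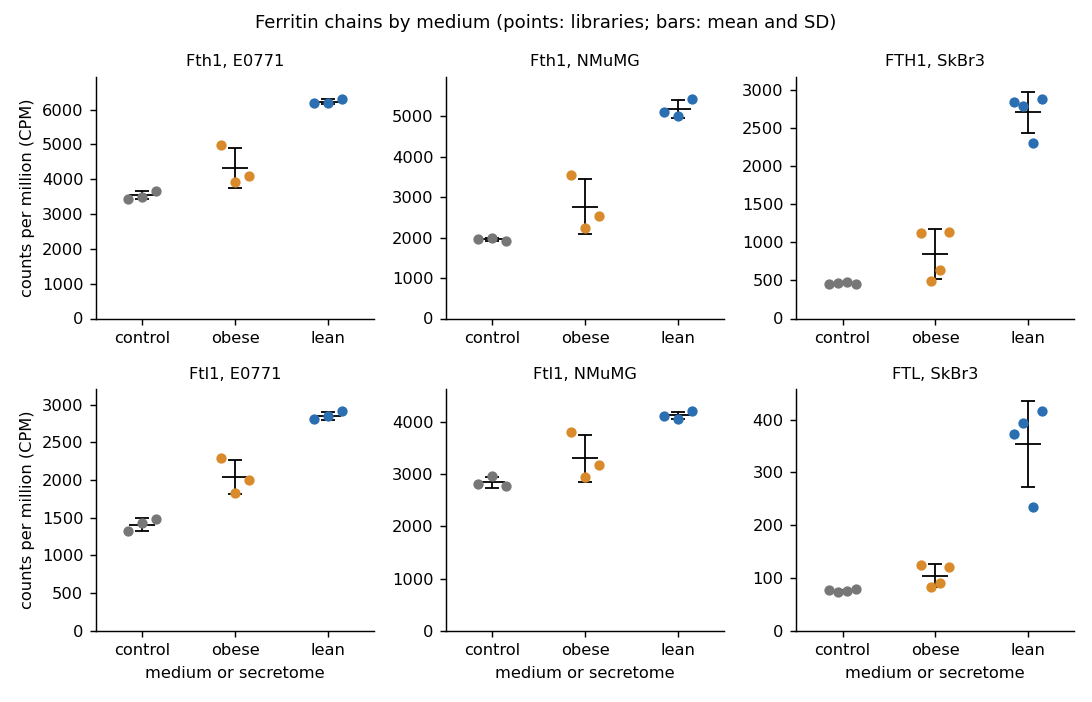
CPM of the ferritin heavy chain (top) and light chain (bottom) in each library by medium, in E0771, NMuMG and SkBr3; points are libraries and bars are the mean and SD of 3 (mouse) or 4 (SkBr3) libraries. The lean libraries lie above all others in each panel, and SkBr3 lean replicate 3 is the lowest lean library for both chains (2302 CPM for FTH1, 235 for FTL).

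Ncoa4, the receptor that takes ferritin to the lysosome, changed less. In E0771 it was at 49.1 to 56.3 CPM in control, 49.8 to 53.7 under obese and 60.2 to 63.1 under lean, so that lean was above both (log2 0.24 over obese, SE 0.055, adjusted p = 0.000763, and 0.24 over control, adjusted p = 0.000622). In NMuMG it was at 67.5 to 72.0 CPM in control, 65.5 to 65.9 under obese and 71.8 to 80.0 under lean, higher under lean than obese (log2 0.18, SE 0.046, adjusted p = 0.00178) but not called over control (log2 0.10, adjusted p = 0.0753). SkBr3 held NCOA4 at 264 to 274 CPM in control, 263 to 281 under obese and 259 to 277 under lean. The 95% interval of its lean over obese log2 fold change was -0.081 to 0.062, while both ferritin chains of the same libraries differed by 1.67 and 1.76 on that scale.

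Among the uptake genes, Tfrc, the transferrin receptor, went in different directions in different lines. In E0771 it stood at 305, 322 and 305 CPM in control, 357, 305 and 314 under obese and 529, 506 and 462 under lean. In NMuMG it stood at 415, 390 and 432 CPM in control, 519, 439 and 489 under obese and 494, 540 and 495 under lean. In SkBr3, TFRC stood at 1510, 1465, 1532 and 1553 CPM in control, 1595, 1609, 1553 and 1518 under obese and 1370, 1340, 1473 and 1297 under lean. Lean was the high group in E0771 and the low group in SkBr3, and in NMuMG lean and obese overlapped. Lean over obese was 1.54-fold in E0771 (log2 0.62, SE 0.058, adjusted p = 3.16e-07), 1.06-fold in NMuMG (log2 0.08, SE 0.067, adjusted p = 0.418) and 0.874-fold in SkBr3 (log2 -0.20, SE 0.037, adjusted p = 0.000216). Lean over control was 1.61-fold in E0771 (adjusted p = 8.1e-08), 1.24-fold in NMuMG (adjusted p = 0.00647) and 0.904-fold in SkBr3 (adjusted p = 0.00254), where the groups overlapped by lean replicate 3. In NMuMG Tfrc under obese secretome was 1.17-fold of control and did not pass (adjusted p = 0.112), though without obese replicate 2 (0.000173), lean replicate 2 (0.0457) or the filter on low counts (9.82e-09) it did, in a range of 9.82e-09 to 0.28.

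Slc11a2, the endosomal iron transporter, stood in E0771 at 59.3, 61.4 and 62.1 CPM in control, 67.8, 56.6 and 62.5 under obese and 82.3, 83.2 and 81.8 under lean. In NMuMG it stood at 65.5, 60.3 and 62.1 CPM in control, 69.9, 65.1 and 69.0 under obese and 73.7, 75.1 and 77.8 under lean. The lean libraries were the highest in both lines, by a wider gap in E0771. Lean over obese was 1.32-fold in E0771 (log2 0.40, SE 0.054, adjusted p = 9.88e-07) and 1.11-fold in NMuMG (log2 0.15, SE 0.045, adjusted p = 0.00771). The NMuMG value had an adjusted p of 0.0593 without obese replicate 2, in a range of 0.006 to 0.0593. Lean over control was 1.35-fold in E0771 (adjusted p = 2.62e-07) and 1.20-fold in NMuMG (adjusted p = 8.05e-06).

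Steap3, the endosomal ferrireductase, was the member that was lower under lean than under obese secretome in both mouse lines. In E0771 it stood at 130, 142 and 149 CPM in control, 157, 178 and 185 under obese and 141, 138 and 140 under lean. In NMuMG it stood at 12.3, 16.0 and 14.3 CPM in control, 17.8, 15.9 and 17.2 under obese and 14.5, 13.1 and 15.0 under lean. The obese libraries were the high group in E0771, and lean and control overlapped in both lines. Lean over obese was 0.807-fold in E0771 (log2 -0.31, SE 0.055, adjusted p = 9.87e-05) and 0.837-fold in NMuMG (log2 -0.26, SE 0.086, adjusted p = 0.0185). The NMuMG call was lost without lean replicate 2 (adjusted p = 0.1), obese replicate 1 (0.0673) or obese replicate 3 (0.066), in a range of 0.00899 to 0.1. Obese over control was 1.24-fold in E0771 (log2 0.31, SE 0.056, adjusted p = 0.00541, and 0.0516 with only those groups fitted) and did not pass in NMuMG (log2 0.26, SE 0.086, adjusted p = 0.0734). In NMuMG it passed without control replicate 2 (0.0279), obese replicate 2 (0.0431) or the filter on low counts (0.0359), in a range of 0.0279 to 0.459.

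Slc40a1, the iron exporter, was at or near 0 in E0771. Its counts were 0, 0 and 0 in the control libraries of that line, 0, 0 and 4 under obese and 1, 0 and 3 under lean, so it was not tested there. In NMuMG it stood at 66.4, 67.1 and 65.5 CPM in control, 66.6, 54.8 and 61.2 under obese and 85.1, 89.5 and 95.3 under lean. In SkBr3, SLC40A1 stood at 59.5, 52.1, 55.6 and 61.0 CPM in control, 72.5, 68.2, 66.9 and 72.6 under obese and 93.9, 88.7, 72.8 and 93.8 under lean. Lean was the highest group in both lines that held the RNA, and in SkBr3 obese lay between lean and control with no overlap. Against a floor of 3 counts over the group, the NMuMG control level was at least 1712-fold higher than that of E0771 control, where 0 of 77154065 counts were from this gene.

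Lean over obese for the exporter was 1.48-fold in NMuMG (log2 0.56, SE 0.054, adjusted p = 5.00e-09) and 1.25-fold in SkBr3 (log2 0.32, SE 0.069, adjusted p = 0.00136). Lean over control was 1.35-fold in NMuMG (adjusted p = 1.83e-07) and 1.53-fold in SkBr3 (adjusted p = 2.58e-06). In SkBr3 obese over control was 1.23-fold and missed the threshold (log2 0.30, SE 0.071, adjusted p = 0.0555). It passed without lean replicate 3 (0.000188) or lean replicate 4 (0.0426), with a replicate block (0.00694), in DESeq2 (0.00747), without the filter (7.93e-07) and with only the obese and control libraries fitted (0.000137), in a range of 7.93e-07 to 0.217. In NMuMG obese over control was 0.917-fold (adjusted p = 0.231, and 0.0309 without obese replicate 1, in a range of 0.0309 to 0.653).

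**Figure D2:**
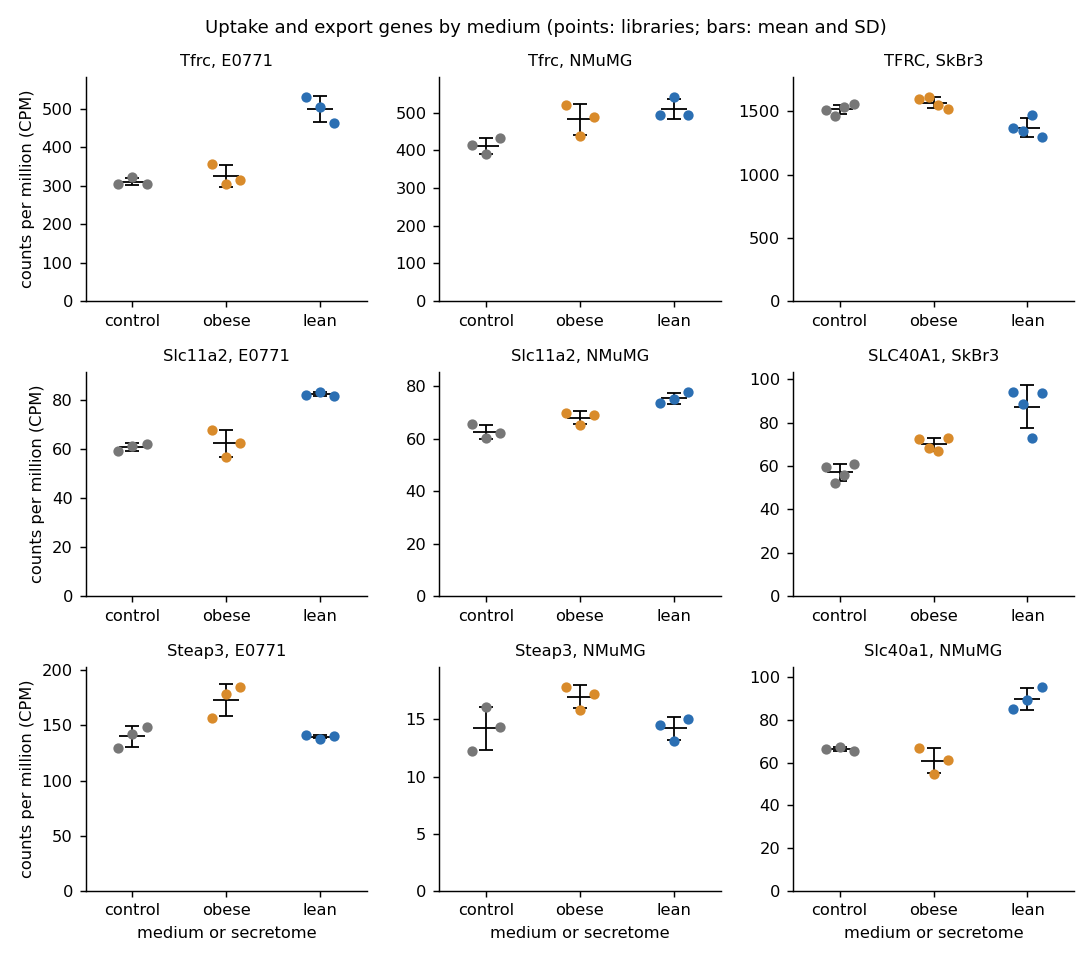
CPM of uptake genes (Tfrc, Slc11a2, Steap3) and the exporter Slc40a1 by medium; points are libraries and bars are the mean and SD of 3 (mouse) or 4 (SkBr3) libraries. Tfrc is highest under lean secretome in E0771 (462 to 529 CPM) and lowest under it in SkBr3 (1297 to 1473 CPM), and Steap3 is highest under obese secretome in E0771.

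Among the sensing genes, Aco1 was higher under lean secretome in NMuMG, and the other calls were small. Aco1, the bifunctional iron regulatory protein and aconitase, stood in NMuMG at 102, 98.8 and 97.3 CPM in control, 97.1, 97.4 and 88.5 under obese and 111, 114 and 118 under lean. Lean was above both other groups there, 1.21-fold over obese (log2 0.28, SE 0.041, adjusted p = 1.61e-06) and 1.15-fold over control (adjusted p = 0.000128). In E0771 the same gene lay between 105 and 114 CPM in all 9 libraries, with a 95% interval of -0.099 to 0.075 for log2 lean over obese. Ireb2, the other regulatory protein, was at 91.9 to 106 CPM over the E0771 libraries and 148 to 164 over those of NMuMG, and it was not called in either line with all libraries in the fit. Lean over obese in E0771 (log2 0.049, adjusted p = 0.44) passed only without lean replicate 3 (log2 0.11, adjusted p = 0.0403), in a range of 0.0403 to 0.954. Lean over control in NMuMG (log2 -0.07, adjusted p = 0.132) passed only without control replicate 2 (0.0246), in a range of 0.0246 to 0.553. In SkBr3, IREB2 was at 86.7 to 95 CPM in control, 87.6 to 91.7 under obese and 95 to 98.7 under lean. It was 1.08-fold higher under lean than obese (log2 0.11, SE 0.039, adjusted p = 0.0227), a call lost without lean replicate 2 (0.0612), obese replicate 3 (0.0548), obese replicate 4 (0.0538) or the filter on low counts (0.0752), in a range of 0.0137 to 0.0752. Over control its adjusted p was 0.0557, and it passed without control replicate 1 (0.0358), in DESeq2 (0.0464) and with DESeq2 size factors (0.0447), in a range of 0.0358 to 0.154. Fbxl5, the ubiquitin ligase subunit that binds iron, was at 59.3 to 65.1 CPM in E0771 and 88.9 to 105 in NMuMG. It was called only for lean over control in NMuMG (log2 0.12, SE 0.046, adjusted p = 0.0418), with overlapping groups. That call was lost without control replicate 1 (0.194) or 2 (0.245), without lean replicate 1 (0.0675), 2 (0.145) or 3 (0.0653) and in DESeq2 (0.0686), in a range of 0.00182 to 0.245. For lean over obese in NMuMG its adjusted p was 0.0772, and it passed without control replicate 3 (0.0443) or obese replicate 1 (0.0289), in a range of 0.0289 to 0.288.

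**Figure D3:**
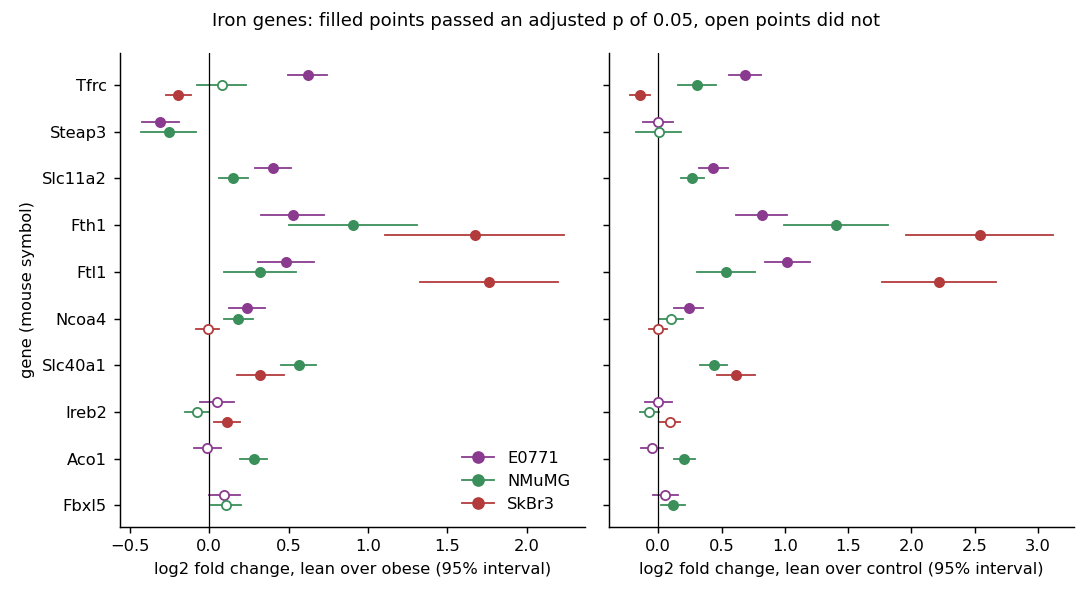
Log2 fold change of each gene for lean over obese (left) and lean over control (right) secretome or medium, with 95% intervals, in E0771, NMuMG and SkBr3; filled points passed an adjusted p of 0.05. The ferritin chains of SkBr3 lie farthest to the right (2.54 for FTH1 and 2.22 for FTL over control), Tfrc spreads over both sides of 0, and Steap3 is below 0 for lean over obese in both mouse lines.

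Whether the mouse lines responded differently was tested as an interaction in 1 fit of their 18 libraries; line and growth medium cannot be told apart in it. Slc40a1, at the floor in E0771, was left out of the counts. For lean over obese, 3 of 9 members differed, where 34.2% of all genes did. The response of Tfrc was larger in E0771 by 0.56 on the log2 scale (SE 0.10, adjusted p = 0.000639) and that of Slc11a2 by 0.27 (SE 0.071, adjusted p = 0.00256), and that of Aco1 was smaller, with a difference of -0.27 (SE 0.059, adjusted p = 0.000247). The Fth1 difference, -0.36 (adjusted p = 0.17), became -0.58 and passed without NMuMG obese replicate 1 (adjusted p = 0.00188, in a range of 0.00188 to 0.372). That of Ireb2, 0.14 (adjusted p = 0.0744), passed without E0771 lean replicate 3 (0.21, adjusted p = 0.0041, in a range of 0.0041 to 0.245). For lean over control, 5 of 9 differed, where 34.5% of all genes did. Both ferritin chains were higher under lean than in control in both lines, but their differences between the lines had opposite signs. The Fth1 response was smaller in E0771 than in NMuMG (difference -0.56, SE 0.19, adjusted p = 0.0354) and the Ftl1 response larger (0.51, SE 0.13, adjusted p = 0.00735). Tfrc (0.40, adjusted p = 0.00671), Slc11a2 (0.19, adjusted p = 0.0315) and Aco1 (-0.22, adjusted p = 0.0022) differed as they did for lean over obese. The Fth1 difference was lost without any 1 of the 12 lean and control libraries (adjusted p from 0.0502 to 0.0734) with a replicate block (0.0544) and without the filter on low counts (0.0601), in a range of 0.0014 to 0.0734. That of Slc11a2 was lost without E0771 control replicate 1 (0.0884), E0771 lean replicate 2 (0.052), NMuMG control replicate 1 (0.117) or NMuMG lean replicate 1 (0.0795), 2 (0.0562) or 3 (0.0517), in DESeq2 (0.0553) and without the filter (0.0566), in a range of 0.0192 to 0.117. The Ncoa4 difference, 0.17 (adjusted p = 0.072), passed without E0771 control replicate 3 (0.0129) or NMuMG lean replicate 3 (0.0376), in a range of 0.0129 to 0.237. That of Ireb2, 0.097 (adjusted p = 0.25), passed without E0771 lean replicate 3 (0.16, adjusted p = 0.0297), in a range of 0.0297 to 0.587. For obese over control edgeR called none of the 9, where 1.69% of all genes differed; 1 had an unadjusted p under 0.05 (Ftl1), and DESeq2 also called 0.

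In control medium, again leaving out Slc40a1, the lines differed in 8 of 9 members, 2 higher and 6 lower in E0771, where 80.5% of all genes differed, 37.1% higher and 43.4% lower. Steap3 was 9.08-fold higher in E0771 (log2 3.18, SE 0.081, adjusted p = 2.15e-20) and Fth1 1.66-fold higher (log2 0.73, SE 0.13, adjusted p = 0.000212). Ftl1 was 0.455-fold (log2 -1.13, SE 0.092, adjusted p = 5.87e-08), Tfrc 0.692-fold and Ncoa4 0.686-fold of the NMuMG level. Ireb2 (0.588-fold) and Fbxl5 (0.595-fold) were also lower in E0771, Slc11a2 stood at 0.893-fold, and Aco1 did not differ beyond its spread (log2 0.04, SE 0.042, adjusted p = 0.422).

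The ratio of heavy-chain to light-chain counts within a library removes library size. It is a ratio of counts, not of molecules, since transcript length was not taken into account. How reads shared by near-identical copies were counted was not given in the sources used here, and human copies were not examined. This ratio is therefore not to be compared in level between lines or species. In E0771 it was 2.51 ± 0.0816 (SD, n = 3) in control, 2.12 ± 0.0696 under obese and 2.18 ± 0.0217 under lean. In NMuMG it was 0.689 ± 0.0151 in control, 0.83 ± 0.0909 under obese and 1.26 ± 0.0297 under lean. In SkBr3 it was 6.11 ± 0.294 (SD, n = 4) in control, 7.88 ± 1.6 under obese and 7.86 ± 1.33 under lean. Lean was below control in E0771 and above it in NMuMG, each with no overlap. The same held for obese against control, and in E0771 lean and obese overlapped. The ratio of Tfrc to Fth1 counts was 0.0878 ± 0.00435 in E0771 control, 0.0754 ± 0.00329 under obese and 0.0802 ± 0.0062 under lean. It was 0.211 ± 0.0145, 0.179 ± 0.0281 and 0.0986 ± 0.00841 in NMuMG. In SkBr3 it was 3.26 ± 0.133, 2.11 ± 0.905 and 0.513 ± 0.0857, with obese spread from 1.34 to 3.24. The lean ratio was thus well below both other groups in NMuMG and SkBr3, and overlapped both in E0771. With 3 libraries against 3 the smallest exact two-sided permutation p is 0.1, and with 4 against 4 it is 0.0286. The latter was reached in SkBr3 by Tfrc to Fth1 for lean against obese and against control and by Fth1 to Ftl1 for lean against control. After adjustment over the 18 ratio comparisons none was under 0.138. At these group sizes no adjusted value could have fallen under 0.05. That outcome was fixed in advance and says nothing about the ratios.

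**Figure D4:**
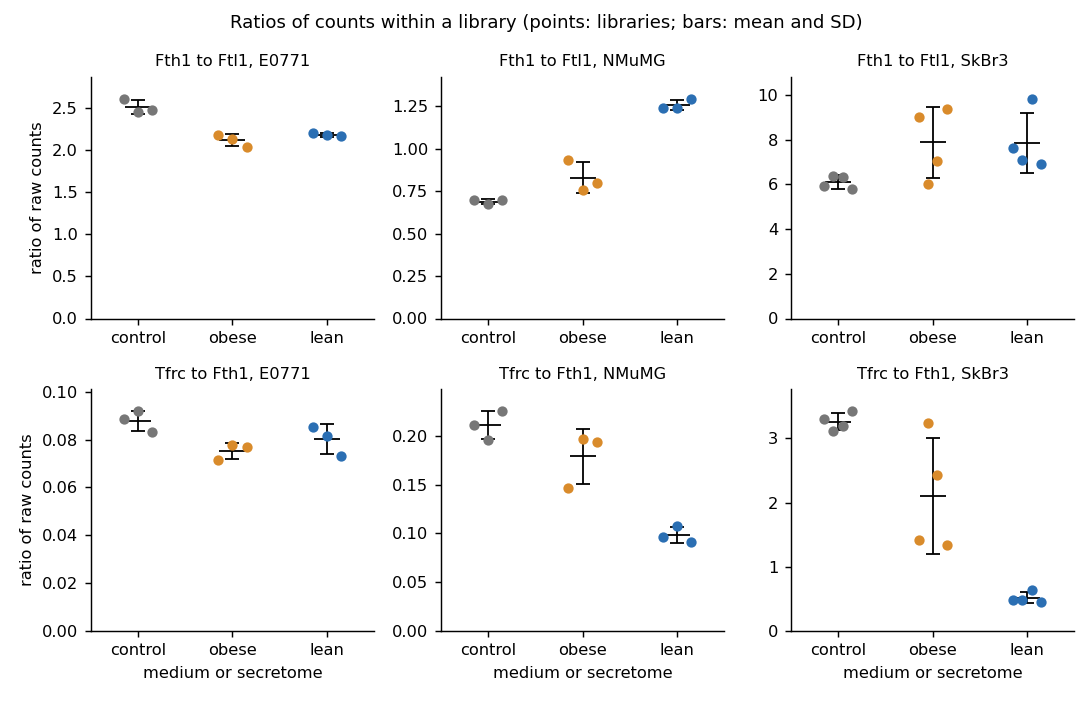
Ratio of Fth1 to Ftl1 counts (top) and of Tfrc to Fth1 counts (bottom) in each library by medium; points are libraries and bars are the mean and SD of 3 (mouse) or 4 (SkBr3) libraries. Under lean secretome the Fth1 to Ftl1 ratio lies below control in E0771 (2.18 against 2.51) and above it in NMuMG (1.26 against 0.689). The obese ratio lies on the same side of control in each (2.12 in E0771 and 0.83 in NMuMG). The Tfrc to Fth1 ratio is lowest under lean in NMuMG and SkBr3.

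A further 77 mouse genes of iron handling, in 6 lists, were read beside the members; 63 were tested in E0771 and 66 in NMuMG. For lean over obese, 15 were higher and 17 lower in E0771 (median log2 -0.0019), and 12 were higher and 13 lower in NMuMG (median 0.016). These counts are close to the shares over all genes tested, which were 25.8% higher and 26.9% lower in E0771 and 17.6% higher and 17.4% lower in NMuMG, and the lists that follow are to be read against the same shares. Most of these genes were not called higher, as the ferritin chains were. Among 9 tested genes of uptake and reduction, 2 were higher and 4 lower in E0771 and 2 higher and 1 lower in NMuMG. Steap1, a relative of Steap3, was the largest rise (log2 0.19) and the siderophore-binding Lcn2 the largest fall (-0.998, at 0.608 against 1.24 CPM) in E0771. In NMuMG they were Hfe (0.43, at 4.48 against 3.32 CPM, adjusted p = 0.0494) and Exoc6 (-0.16). Calls in these lists were not recomputed under the alternatives. Of 7 storage, chaperone and ferritin turnover genes, 1 was higher and 3 lower in E0771. They were led by the glutaredoxin Glrx3 (0.30) and the ligase Herc2 (-0.40, SE 0.14, adjusted p = 0.0498). In NMuMG 0 were higher and 2 lower, led by the iron chaperone Pcbp2 (-0.26).

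Of the genes for export and its control, 2 were tested in E0771, where Neo1 was higher (log2 0.21), and 5 in NMuMG, where 2 were lower, led by Erfe (-0.47). Of 20 mitochondrial iron and cluster genes, 2 were higher and 5 lower in E0771, and 3 higher and 4 lower in NMuMG. The mitochondrial transporter Abcb8 was lower in E0771 (log2 -1.08, SE 0.063, adjusted p = 2.12e-12) and Lyrm4 higher (0.38), and in NMuMG Cisd3 was the largest rise (0.34). Of 10 genes for the degradation of regulatory proteins and for cytosolic clusters, 2 were higher and 2 lower in E0771, with Nubp2 (0.36) and the ligase subunit Rbx1 (-0.28) at the ends. In NMuMG 1 was higher and 2 lower, with Nubp2 (0.15) and Nubp1 (-0.20) at the ends.

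Of 15 tested genes of heme traffic and turnover, 7 were higher and 3 lower in E0771, and 6 higher and 2 lower in NMuMG, beside 25.8% higher and 26.9% lower over all genes in E0771 and 17.6% and 17.4% in NMuMG. Hmox1, which frees iron from heme, was at 1650 CPM under lean and 168 under obese secretome in E0771 (log2 3.30, SE 0.38, adjusted p = 0.000355) and at 227 and 82.8 CPM in NMuMG (log2 1.46, SE 0.20, adjusted p = 0.00145). Alas1, the first enzyme of heme synthesis, was higher in E0771 (log2 1.20, SE 0.070), and the biliverdin reductase Blvrb in NMuMG (log2 2.61, SE 0.18). Blvrb was also called higher in E0771, by less (log2 0.71, SE 0.18, adjusted p = 0.0166). Cpox, a heme synthesis enzyme, was the largest fall in NMuMG (-0.30).

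The genes whose log2 CPM most resembled that of Fth1 over the 9 libraries of a line were Cyb5a, Twf1, Gstp1, Pir and Esd in E0771 (Pearson r 0.996 to 0.998, of 9945 genes compared) and Slc48a1, Pgd, Tsku, Plaur and Slc39a4 in NMuMG (0.998 to 0.999, of 10678). For Tfrc they were Rnf11, Bri3bp, Mtrex, Canx and Brix1 in E0771 (0.995 to 0.997) and Hspa4, Slc20a1, Cnbp, Psmd12 and Rcl1 in NMuMG (0.968 to 0.988). The 5 closest genes differed between the lines for both members. These correlations describe 9 libraries in 3 groups, and the points share the media and the library scaling.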

How the data were processed

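Poly(A) RNA was sequenced from 30 libraries. The authors deposited raw counts per Ensembl gene ID, a mouse table and a human table, with no normalization. Per the submitters' processing notes, the tools were cutadapt 1.16, STAR 2.7.9a and featureCounts 1.6.3, with the build GRCm39; the human build, the annotation release, the strand setting and the handling of multimapping reads were not given in the sources used here. Mouse symbols came from GENCODE M21, which matched 52073 of 56980 IDs; human members were read by ID.

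Each line was fitted with its 3 media in edgeR 4.0.16 (R 4.3.3): filterByExpr, TMM factors, a robust quasi-likelihood fit and two-sided F tests with Benjamini-Hochberg adjustment over all genes tested (13813 in E0771, 15014 in NMuMG, 14874 in SkBr3), called at an adjusted p under 0.05. SE is the log2 fold change over the root of F. Differences between the mouse lines came from 1 fit of 18 libraries (16529 genes). Ratios of counts were compared by exact permutation tests. The pipeline was run on simulated data in which a far smaller share of genes changed than was called under lean secretome here. That run does not show how the fit behaves when so many genes change. The alternatives were DESeq2 1.42.0, its size factors in edgeR, no filter on low counts, a replicate block, only the groups compared, and leaving out each library. The count minimum called the floor is 3.

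The members, gene lists and markers were chosen with earlier results of these data known. All members were named; other iron genes were named where called with lean and obese differing by at least 1 on the log2 scale, or as the largest called rise or fall of a list in a line; 2 genes that this rule names are not reported here. Nothing states that replicates were separate cultures, so p-values measure the spread between these libraries, which may be technical. The chi-square per degree of freedom of the 36 replicate pairs was 1.93 to 13.7, so the libraries of each pair differed by more than counting noise. Whether they came from the same culture or RNA cannot be told from this value.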

Additional observations from a re-analysis of the deposited data

Results flagged for a closer look

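The FTH1 level of SkBr3 lean replicate 3, 2302 CPM, lay far from the other 3 lean libraries (2788 to 2878 CPM) by Dixon's criterion, among 18 groups of 4 libraries examined; chance alone marks about 1 group in 20. The same library was the lowest lean library for FTL (235 CPM) and SLC40A1 (72.8 CPM) and the highest for TFRC (1473 CPM).

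Responses that differed between E0771 and NMuMG in the interaction test were those to lean over obese of Tfrc (0.56), Slc11a2 (0.27) and Aco1 (-0.27). For lean over control they were those of Fth1 (-0.56), Ftl1 (0.51), Tfrc (0.40), Slc11a2 (0.19) and Aco1 (-0.22), all as log2 differences of E0771 minus NMuMG. Of 22 alternatives for lean over control, 8 kept the call of Fth1 and 14 that of Slc11a2. All 22 kept those of Ftl1, Tfrc and Aco1. Of all genes tested, 34.2% differed between the lines for lean over obese and 34.5% for lean over control. The growth media of the lines also differ, so line and medium cannot be told apart.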

How the results depend on the processing

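Of 1918 values recomputed under an alternative, 1782 kept their direction and side of the threshold. Of those that belong to called results, 855 did, 50 lost the call and none changed sign. All 54 changes of sign were in results that had not been called, most with values near 0; in each, the cause was not tested. Among these log2 values, Steap3 in E0771 for lean over control (-0.0025) became 0.00749 with DESeq2 size factors, 0.00724 in DESeq2, 0.000453 without the filter and 0.00565 with only those groups. NCOA4 in SkBr3 for lean over control (-0.0038) became 0.00133, 0.00161 and, with only those groups, 0.00109. The line difference of Fbxl5 for lean over obese (0.0049) became -0.0119 with size factors, -0.0119 in DESeq2 and -0.00991 without the filter.

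Leaving out 1 library at a time gave these ranges. For line differences, Fbxl5 ranged from -0.10 to 0.0098 (lean over control), -0.026 to 0.038 (lean over obese) and -0.11 to 0.0028 (obese over control), Steap3 from -0.075 to 0.12, -0.10 to 0.017 and -0.040 to 0.15, and Fth1 from -0.33 to 0.019 (obese over control). For obese over control, the ranges were -0.033 to 0.080 for Fbxl5 and -0.032 to 0.044 for Ireb2 in NMuMG, -0.037 to 0.076 for Ncoa4, -0.033 to 0.11 for Slc11a2 and -0.0060 to 0.12 for Tfrc in E0771, and -0.038 to 0.0019 for IREB2 and -0.013 to 0.019 for NCOA4 in SkBr3. For lean over control they were -0.043 to 0.063 for Ireb2 and -0.058 to 0.053 for Steap3 in E0771, -0.097 to 0.099 for Steap3 in NMuMG and -0.020 to 0.013 for NCOA4 in SkBr3, which for lean over obese ranged from -0.026 to 0.012.

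The number of members called for obese over control was the least stable. In E0771 (2) it was 0 with only those groups and 1 to 3 without 1 library. In NMuMG (0) it was 2 without the filter and 0 to 2 without 1 library. In SkBr3 (0) it was 2 in DESeq2, 1 without the filter, 1 with the replicate block, 1 with only those groups and 0 to 1 without 1 library. The line difference for lean over control (5) counted 3 without the filter and 3 to 5 without 1 library. The SkBr3 ratio of Fth1 to Ftl1 ranged on the log2 scale from -0.11 to 0.10 for lean minus obese, 0.24 to 0.41 for lean minus control and 0.25 to 0.47 for obese minus control, and that of Tfrc to Fth1 from -0.97 to -0.54 for obese minus control.

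Replicate numbers showed no sign of pairing the libraries. Deviations of same-numbered libraries correlated at -0.094 to 0.11 in E0771, -0.029 to 0.025 in NMuMG and -0.045 to 0.052 in SkBr3. A library's best match had its own number in 6 of 18, 7 of 18 and 3 of 24 cases. With 3 or 4 libraries per medium, this check cannot settle that the libraries were unpaired. With the replicate block, 109 values kept their side, 1 gained a call (SLC40A1 for obese over control in SkBr3) and 2 lost one (Ftl1 for lean over obese in NMuMG and the Fth1 line difference for lean over control). Slc40a1, with 0 to 4 counts per library in E0771, could not be compared between media there.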
